A study of Homo sapiens with 24 samples.

Results

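The SOX genes encode transcription factors that bind DNA through an HMG box related to that of SRY. The 10 members described here are SOX2, SOX3, SOX4, SOX5, SOX6, SOX8, SOX9, SOX11, SOX13 and SOX21, the SOX factors of neural stem cells and glia other than SOX10. They were taken by gene symbol from the 58676 genes with deposited counts. Each of the 10 had a row, and all 10 passed the filter on low counts in every comparison.

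HSJD-DIPG-007 is an established diffuse midline glioma (DMG) line whose labels give the genotype H3F3A K27M, ACVR1 R206H and PIK3CA MIS, which vehicle and treated cells share. Spheroids received vehicle or LLY-283, an inhibitor of the arginine methyltransferase PRMT5, at its GI40 dose, with medium and compound or vehicle renewed after day 5. Poly(A) RNA was sequenced in 24 libraries over 7 time points, with 3 libraries per treatment at days 0 and 5, 2 at day 7 and 1 at days 1, 2, 3 and 10. The series thus holds 1 cell line, and repeats of a treatment and day were described as technical, so that p-values measure only the spread between these libraries.

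Library totals ranged from 13835205 to 23190369 counts. The libraries of a treatment and day differed by more than sampling noise, with a chi-square per degree of freedom between 1.65 and 3.79 at days 0 and 5, and none was counted as a duplicate. At day 7 this value was 11.2 for vehicle and 13.4 for LLY-283, and SOX9 differed between treatments in opposite directions in repeats 1 and 2. In repeat 1, SOX9 stood at 222 CPM (a gene's reads relative to the library total after TMM scaling) in vehicle and 285 with LLY-283, but at 307 in the library labelled vehicle repeat 2 and 211 in that labelled LLY-283 repeat 2. Other members with opposite differences in these repeats are given with the day 7 values. Whether the treatment labels of the repeat 2 libraries were exchanged was not tested. Day 7 values are therefore given by label, and again without both repeat 2 libraries. The 7 glioma or oligodendrocyte precursor markers, among them OLIG1, OLIG2 and PDGFRA, were detected in every library, with a summed level between 8030 and 9770 CPM. Summed marker levels, here and below, are relative to the library total without TMM scaling. Microglia or blood markers summed to between 0.12 and 1.88 CPM. Vehicle day 5 repeat 3 stood apart by fibroblast genes, with FN1 at 60.5 CPM against 2.42 and 2.7 in repeats 1 and 2, and COL1A2 at 36.9 against 1.06 and 0.658. LLY-283 day 2 and vehicle day 7 repeat 1 also carried these genes, with FN1 at 26 and 30 CPM.

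SOX factors are grouped by their protein sequence. The SOXB1 factors SOX2 and SOX3 hold neural progenitors in the undifferentiated state, whereas the SOXB2 factor SOX21 acts as a repressor at many of the same sites. The SOXC factors SOX4 and SOX11 act in early neurons and in progenitors. The SOXD factors SOX5, SOX6 and SOX13 lack an activation domain and modulate other SOX proteins, and the SOXE factors SOX8, SOX9 and SOX10 direct glial fate, SOX9 being a factor of astrocytes and of the switch from neurons to glia. High expression of SOX2 and SOX9 is a familiar feature of glioma cells.

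The promoters of the SOXB genes are shown because SOX2 and SOX3 rose and SOX21 fell between day 0 and day 5 in the LLY-283 cultures, with 1 transcript each in the annotation. Each sequence is the 250 bases before the start of the gene, read 5′ to 3′ on the strand of the gene (RefSeq, GRCh38.p14), and the capitals mark ATTGG, the reverse complement of the CCAAT box. SOX2 lies on the plus strand (chr3:181711675-181711924), and SOX3 (chrX:140505070-140505319) and SOX21 (chr13:94712546-94712795) lie on the minus strand.
SOX2: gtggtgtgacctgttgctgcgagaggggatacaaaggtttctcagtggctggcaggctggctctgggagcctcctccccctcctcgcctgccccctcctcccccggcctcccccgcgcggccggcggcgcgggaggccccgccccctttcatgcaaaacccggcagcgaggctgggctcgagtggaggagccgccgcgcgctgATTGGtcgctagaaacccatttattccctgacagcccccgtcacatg
SOX3: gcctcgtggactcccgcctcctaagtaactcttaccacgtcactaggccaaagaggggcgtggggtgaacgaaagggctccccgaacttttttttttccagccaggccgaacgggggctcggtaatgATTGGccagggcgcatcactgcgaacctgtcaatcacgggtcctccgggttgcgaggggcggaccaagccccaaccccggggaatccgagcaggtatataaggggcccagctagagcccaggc
SOX21: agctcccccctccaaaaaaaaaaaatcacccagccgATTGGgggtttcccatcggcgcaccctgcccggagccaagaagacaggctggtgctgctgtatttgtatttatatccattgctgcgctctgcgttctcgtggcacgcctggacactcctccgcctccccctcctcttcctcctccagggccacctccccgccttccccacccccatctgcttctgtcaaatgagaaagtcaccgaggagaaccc
Each of these promoters held 1 CCAAT box on either strand, a sequence found in 32% of the 35116 promoters of that length. On either strand, the GC box GGGCGG (42.6% of all promoters) stood in the promoters of SOX2 and SOX3 and not in that of SOX21. The SOX21 sequence held TTTATA, the reverse complement of TATAAA, which stood on either strand in 10.7% of all promoters. Other forms of TATAAA, such as the tatataagg near the end of the SOX3 sequence, were not searched. The sequence ACAAT, a form of the SOX core motif present in 24.6% of all promoters, was in none of these windows. Other forms of that motif were not searched. Of the 10 members, 7 had a promoter entry, and SOX8, SOX9 and SOX11 are named only. A match of letters is a description and not a binding site.

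Per transcript length, SOX2 was the most abundant of the 10 genes in both treatments at days 0 and 5. Per kb of the longest annotated transcript, its level in vehicle at day 0 was 106 ± 4.11 CPM per kb (SD, n = 3), followed by SOX9 at 50.8 ± 0.701 and SOX4 at 46.8 ± 1.18. SOX21 (22.2 ± 1.54), SOX13 (18.1 ± 0.998), SOX11 (14.2 ± 0.109) and SOX5 (10.3 ± 0.303) lay in the middle of the order. SOX6 (5.69 ± 0.175), SOX8 (4.64 ± 0.395) and SOX3 (2.23 ± 0.279) were the lowest, and no neighbours in this order overlapped between libraries. The order differed between day 0 and day 5. In vehicle at day 5, SOX13 stood above SOX21, SOX8 stood above SOX6 (12.7 ± 0.6 against 7.66 ± 0.131), and the libraries of SOX21, SOX11 and SOX5 overlapped with their neighbours. SOX2 reached 169 ± 6.86 CPM per kb in vehicle at day 5 and 173 ± 3.48 with LLY-283. SOX9 held the second place in both, at 65.8 ± 1.98 and 87.4 ± 0.885.

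**Figure D1:**
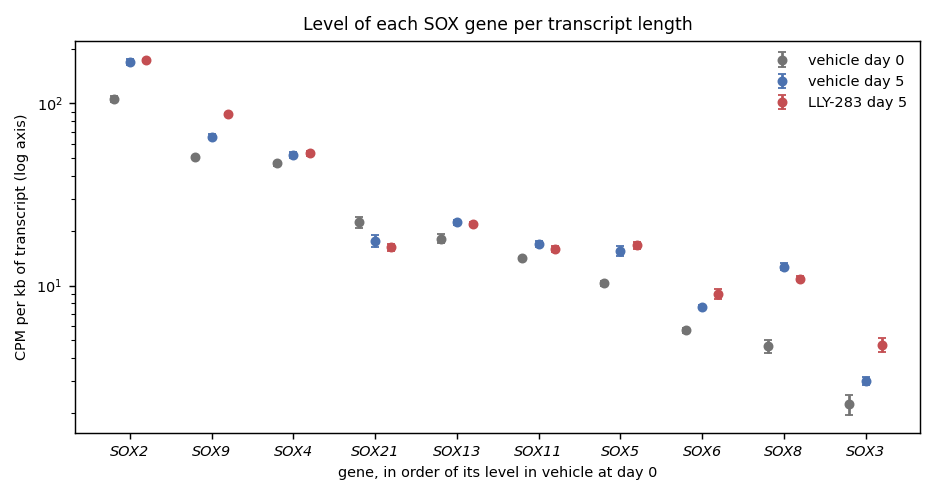
Level of each SOX gene in CPM per kb of its longest transcript, on a log axis, in vehicle at day 0 (grey), vehicle at day 5 (blue) and LLY-283 at day 5 (red). Points are means and bars the SD of 3 libraries. SOX2 is highest in all, from 106 to 173 CPM per kb, and SOX3 lowest, from 2.23 to 4.74.

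The range of a gene over all 24 libraries, those of day 7 included, differed between the members. SOX8 spanned 3.76-fold, from 16.6 to 62.3 CPM, SOX3 2.74-fold and SOX21 2.02-fold. SOX4 spanned 1.28-fold, from 209 to 268 CPM, and SOX11 1.37-fold. The other members lay between these, from 1.45-fold (SOX13) to 1.94-fold (SOX9). SOX3 was measured with the fewest reads, 76 to 217 counts per library, where counting alone gives a coefficient of variation of about 10.4% at the mean count of 93.3 in vehicle at day 0. SOX2 had 4997 to 8872 counts per library, and its libraries varied by 3.89% in vehicle at day 0.

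The change from day 0 to day 5 asked how the SOX genes moved in culture without the compound. In vehicle, 9 of 10 members were called (adjusted p under 0.01 in edgeR's quasi-likelihood test, with all genes tested entering the Benjamini-Hochberg adjustment), 8 higher and 1 lower. Among the 17106 genes tested, 38.9% were called, 22.2% higher and 16.7% lower. The median log2 fold change was 0.38 over the members and -0.015 over all genes tested. All 10 members had libraries of day 5 that did not overlap with those of day 0, as had 57.1% of genes. The share of lower genes among all called was 42.9%, and 53.8% with scaling by library size alone. In bulk RNA, a change in the share of cells that express a gene and a change of its RNA per cell cannot be told apart.

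SOX8, a SOXE factor of the oligodendrocyte lineage, changed most. Its 3 vehicle libraries of day 0 were at 17.8, 21.1 and 18.9 CPM, and those of day 5 at 49.9, 53 and 54.9 CPM. Every day 5 library was thus above every day 0 library, and the rise was 2.7-fold (log2 1.43, SE 0.0637, adjusted p = 9.2e-17, edgeR). At days 1, 2 and 3 the vehicle library was at 27.1, 34.8 and 39.7 CPM, between the levels of days 0 and 5.

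SOX2, the progenitor factor, was at 256, 263 and 276 CPM in vehicle at day 0 and at 420, 411 and 445 CPM at day 5. The groups were far apart, with a 1.59-fold rise (log2 0.67, SE 0.0383, adjusted p = 2.5e-14, edgeR). Most of that distance was already present at day 1, where vehicle was at 353 CPM, with 350 and 353 CPM at days 2 and 3. Of the SOXD genes, SOX5 rose 1.48-fold, from 71.1–75.4 to 103–115 CPM (adjusted p = 2.5e-11), SOX6 rose 1.33-fold (1.8e-08) and SOX13 1.22-fold (5.7e-06). SOX9 rose 1.28-fold, from 197–202 to 254–268 CPM (adjusted p = 3.7e-09), after a level of 301 CPM at day 1. The SOXC genes moved least, SOX11 by 1.18-fold (9.8e-06) and SOX4 by 1.1-fold (0.0028). The SOX4 call was lost with either of 2 libraries left out, as the adjusted p was 0.02 without repeat 2 of day 0 and 0.018 without repeat 3 of day 5, and it was lost with library size alone (0.048). SOX9 did not pass in the fit of all 22 libraries of days 0 to 7 (0.017). SOX3 was 1.32-fold higher without passing the test (adjusted p = 0.021).

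SOX21, the repressor of the SOXB group, was the member that fell. It was at 60.1, 66.1 and 68.9 CPM in vehicle at day 0, at 44.9, 42.9 and 42.5 CPM at days 1, 2 and 3, and at 50.7, 48 and 55.5 CPM at day 5. The day 5 libraries lay below those of day 0 and above the libraries of days 1 to 3. The change from day 0 to day 5 was 0.781-fold (log2 -0.36, SE 0.0552, adjusted p = 6.7e-06, edgeR).

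In the LLY-283 cultures all 10 members were called between day 0 and day 5, 9 higher and 1 lower, against 42.4% of 17341 genes tested, 22.9% higher and 19.5% lower. The median log2 fold change was 0.64 over the members and 0.005 over all genes. Again no member overlapped between the days, as was the case for 57.6% of genes. SOX8 rose 2.6-fold (adjusted p = 2.3e-15), SOX3 2.01-fold (2.1e-07), SOX9 1.73-fold (9.3e-16), SOX5 1.62-fold (9.6e-14), SOX6 1.6-fold (6.3e-12) and SOX2 1.52-fold (3.8e-14). SOX13 rose 1.21-fold, and SOX11 (1.1-fold, 0.0036) and SOX4 (1.09-fold, 0.0021) were near the limit of the test. Without LLY-283 day 0 repeat 2 both lost the call, at 0.045 for SOX11 and 0.014 for SOX4, as they did without day 0 repeat 3 (0.013 and 0.019). SOX4 also lost it without LLY-283 day 5 repeat 2 (0.014), and SOX11 without day 5 repeat 1 (0.016) or repeat 3 (0.014). Without the filter on low counts neither was called (0.015 for SOX11 and 0.019 for SOX4), nor in the fit of 22 libraries (0.12 and 0.072). In that fit without both day 7 libraries labelled repeat 2 they were at 0.019 and 0.026. SOX11 was at 0.023 with DESeq2 and 0.01 with its size factors. SOX21 fell to 0.663-fold (adjusted p = 8.5e-11).

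**Figure D2:**
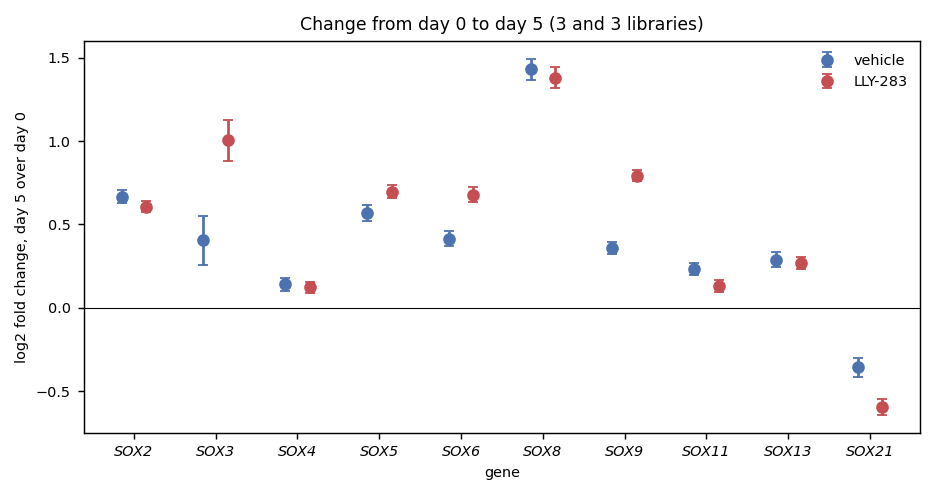
Log2 fold change of each SOX gene from day 0 to day 5 in vehicle (blue) and LLY-283 (red), with bars for the standard error of the edgeR fit on 3 and 3 libraries. SOX8 shows the largest rise in both, at 1.431 and 1.381, and SOX21 is the only gene below 0. The treatments lie farthest apart at SOX3 (0.405 and 1.004), SOX9 (0.357 and 0.793), SOX6 (0.415 and 0.679) and SOX21 (-0.357 and -0.594). Bars are also apart at SOX5 (0.569 and 0.697) and SOX11 (0.233 and 0.133).

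The comparison of LLY-283 with vehicle at day 5 is the main test of the compound. At this day SOX9, SOX3 and SOX6 were higher with LLY-283 and SOX8 was lower, so that 4 of 10 members were called, against 26.1% of the 16491 genes tested. Of all genes 12% were called higher and 14.1% lower, so that 53.8% of the called genes were lower. With scaling by library size alone this share was 44.7%, and with DESeq2 58%. The members called belong to the SOXB1, SOXD and SOXE groups, but SOX2, SOX5 and SOX13 of these groups were not called. Neither SOXC member was called, whereas SOX12, a SOXC gene outside the members, was called lower. The median log2 fold change was 0.05 over the members and 0.021 over all genes. The libraries of the treatments did not overlap for the same 4 members, and did not overlap for 46.3% of all genes.

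SOX9 (ENSG00000125398, chr17:72121020-72126416 on GRCh38) had the smallest adjusted p of the members. Its LLY-283 libraries were at 347, 342 and 341 CPM and its vehicle libraries at 254, 255 and 268 CPM. The lowest LLY-283 library was above the highest vehicle library, and the difference was 1.35-fold (log2 0.43, SE 0.0349, adjusted p = 1.4e-10, edgeR). Leaving out any library gave log2 values between 0.405 and 0.453. Without vehicle day 5 repeat 3, the library with fibroblast genes, the value was 0.453 (adjusted p = 1.5e-08). In the fit of all 22 libraries of days 0 to 7, given below, SOX9 was not called.

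SOX3 (ENSG00000134595, chrX:140502985-140505069) showed the largest fold among the called members, at the lowest counts. LLY-283 libraries had 10.4, 10.4 and 8.86 CPM, from 178, 197 and 177 counts, and vehicle libraries had 6.47, 6.31 and 5.92 CPM, from 104, 96 and 80 counts. The groups were apart, with a 1.61-fold difference (log2 0.68, SE 0.119, adjusted p = 4.2e-05, edgeR). It was 0.644 on the log2 scale without vehicle day 5 repeat 3 (adjusted p = 0.00057).

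SOX6 (ENSG00000110693, chr11:15966449-16739591), a SOXD factor that restrains maturation of the oligodendrocyte lineage, was at 88.6, 78 and 84.3 CPM with LLY-283 and at 70.2, 72.6 and 71.1 CPM in vehicle. No LLY-283 library fell within the vehicle range, and the difference was 1.19-fold (log2 0.25, SE 0.046, adjusted p = 6.7e-05, edgeR). SOX5, its partner in that group, was at 123, 116 and 114 CPM against 103, 115 and 112 CPM. These groups overlapped, and SOX5 did not pass the test (log2 0.125, adjusted p = 0.021). With scaling by library size alone it passed, at 0.0069.

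SOX8 (ENSG00000005513, chr16:981770-986979) was the member lower with LLY-283, at 44, 46.8 and 45.6 CPM against 49.9, 53 and 54.9 CPM in vehicle. The groups did not overlap, and the fold was 0.881 (log2 -0.18, SE 0.0528, adjusted p = 0.0075, edgeR). This call was lost when any 1 of 5 libraries was left out, namely the vehicle repeats 2 (adjusted p = 0.019) and 3 (0.04) and the LLY-283 repeats 1 (0.021), 2 (0.011) and 3 (0.018). DESeq2 gave 0.026 and scaling by library size alone 0.029, with the direction kept.

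The remaining members gave log2 values between -0.095 (SOX21) and 0.054 (SOX4) at day 5 beside the 0.125 of SOX5. SOX2 was at 442, 434 and 424 CPM with LLY-283 and at 420, 411 and 445 CPM in vehicle, a log2 value of 0.052 with an SE of 0.0355 (adjusted p = 0.27). SOX4 (adjusted p = 0.28), SOX11 (0.26), SOX13 (0.76) and SOX21 (0.18) did not pass the test either, which does not show that they were alike in both treatments. SOX13 was at -0.019, and at 0.01 with scaling by library size alone. In a fit of all 22 libraries of days 0 to 7, whose spread includes the doubtful day 7 libraries, SOX3 was the member called (adjusted p = 0.0092), with 0.011 for SOX6, 0.018 for SOX9 and 0.13 for SOX8. In the same fit without both day 7 libraries labelled repeat 2, all 4 were called, at 0.00013, 0.00034, 1.8e-09 and 0.0059. Those libraries were doubted in part from the values of these members, so that leaving them out gives no independent support.

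Some marker genes of other cells were also called between the treatments at day 5. Of all genes tested, 12% were called higher and 14.1% lower. Of 12 fibroblast markers 10 were tested, 3 were called higher with LLY-283 (COL5A2, LUM and POSTN) and 0 lower, and their summed level was 467 to 475 CPM with LLY-283 and 329, 341 and 505 CPM in the vehicle libraries. Between 0 and 2 of the 12 were at 0 counts in these 6 libraries. Of 5 neuron markers 4 were tested and 2 were called higher (SYT1, a synaptic vesicle protein, and GAD1, an enzyme of GABA synthesis), with summed levels of 155 to 170 CPM against 105 to 111 CPM. Microglia or blood markers summed to between 0.12 and 0.855 CPM, and 2 or 3 of 5 were at 0 in each day 5 library. Endothelial markers summed to 4.73 to 7.59 CPM, and 1 of 4 was tested without a call. The glioma or oligodendrocyte precursor markers summed to 8600 to 8910 CPM in vehicle and 9270 to 9400 CPM with LLY-283 at day 5. The part of these cells or genes in the SOX differences was not tested, apart from the values without vehicle day 5 repeat 3 above.

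**Figure D3:**
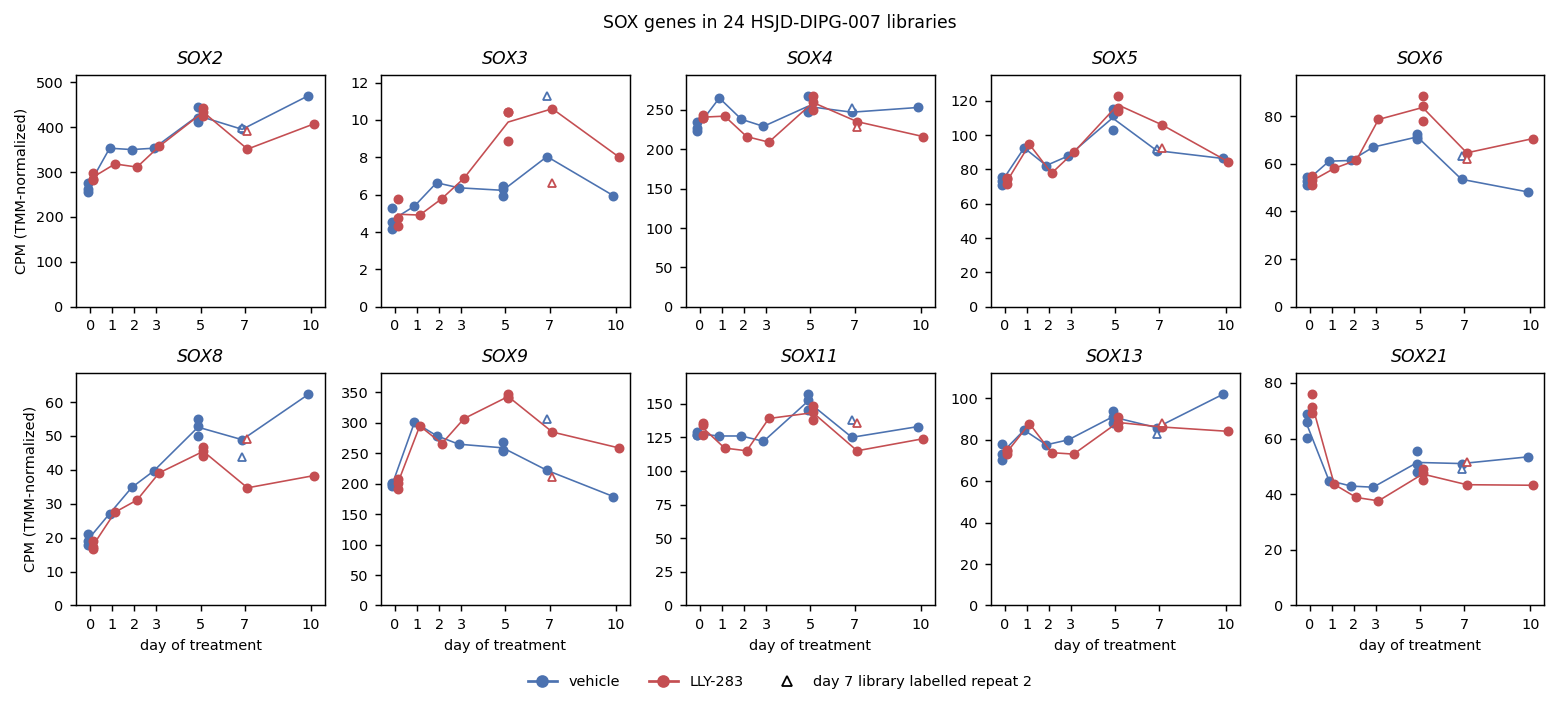
CPM of each SOX gene (vertical axis, TMM-normalized) against day of treatment in vehicle (blue) and LLY-283 (red), 1 point per library. Lines join the daily means without the day 7 libraries labelled repeat 2, which are drawn as open triangles. At SOX9 the line of LLY-283 lies above that of vehicle from day 3 (307 and 265 CPM) to day 10 (259 and 179). The triangles of day 7 lie in the opposite order by label (log2 -0.541).

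Day 0 gives the background of the same comparison, as the compound had had no time to act. No member was called by edgeR's test, against 0.0169% of the 17780 genes tested (3 genes). At an unadjusted p under 0.05, 3 members and 1012 genes passed, and DESeq2 also called 0 members. The members at that unadjusted p were SOX2 (log2 0.11), SOX4 (0.07) and SOX21 (0.14), each with LLY-283 libraries above all vehicle libraries. Groups without overlap were found for 11.9% of all genes. SOX9, SOX3 and SOX6 were at -0.007, 0.079 and -0.014 on the log2 scale.

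The interaction of treatment with day tested whether the day 5 difference exceeded that of day 0, over 12 libraries. It was called for SOX9 and SOX6, 2 of 10 members, against 14.9% of 18369 genes tested, 6.78% with a higher and 8.15% with a lower LLY-283 effect at day 5. The LLY-283 effect on SOX9 was 0.44 larger at day 5 on the log2 scale (SE 0.0496, adjusted p = 2.1e-07, edgeR), and between 0.392 and 0.468 with any library left out. For SOX6 it was 0.27 larger (SE 0.0664, adjusted p = 0.0031). SOX6 lost this call without repeat 1 of vehicle at day 5 (0.012) or at day 0 (0.019), without repeat 1 of LLY-283 at day 0 (0.015), and with DESeq2 (0.015). SOX3 had the largest value, 0.607, with an SE of 0.186 and an adjusted p of 0.017, which fell to 0.0075 without LLY-283 day 0 repeat 3. SOX21 was at -0.229 (adjusted p = 0.029). For SOX8 the interaction was -0.043 (SE 0.0915, adjusted p = 0.79), so that its lower level at day 5 was not shown to differ from the -0.14 of day 0.

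Over days 1 to 3, with the day as a block, none of the 10 members was called by edgeR's test, against 0% of the 17240 genes tested, with 1 member (SOX4, log2 -0.12) and 2879 genes at an unadjusted p under 0.05 and 0 members called by DESeq2. SOX9 was at 295 CPM with LLY-283 against 301 in vehicle at day 1, and at 266 against 279 CPM at day 2. At day 3 it was at 307 against 265 CPM, and SOX6 was at 78.6 against 67 CPM. Day 3 has 1 library per treatment and no test of its own. Without day 3, 256 of 17747 genes were called, 56.2% of them lower. Among them SOX2 was lower with LLY-283 (log2 -0.152, adjusted p = 0.004, edgeR). Vehicle and LLY-283 were at 353 and 318 CPM at day 1 and at 350 and 311 CPM at day 2. Over all of days 1 to 3, SOX2 was at -0.083 (adjusted p = 0.44, edgeR). It was at -0.061 (0.75) without day 1 and at -0.043 (0.9) without day 2.

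At day 7, taken by label, edgeR called 0 members and 0% of 16826 genes, with 0 members and 236 genes at an unadjusted p under 0.05, and 0 members by DESeq2. Repeat 1 and repeat 2 gave opposite directions for the members that differed at day 5. For SOX9 the log2 difference of LLY-283 from vehicle was 0.361 in repeat 1 and -0.541 in repeat 2, for SOX3 0.4 and -0.767, and for SOX8 -0.493 and 0.16. SOX6 was at 0.27 and -0.03. SOX21, which was not called at day 5, also differed in direction, at -0.232 and 0.065. Both repeat 2 libraries were then left out of a fit over the other libraries of days 0 to 7. The log2 values were 0.36 for SOX9, -0.49 for SOX8, 0.405 for SOX3 and 0.274 for SOX6. The repeat 2 libraries were doubted in part from the values of these members, so that leaving them out is no test of these members. That fit has 1 day 7 library per treatment, which is assumed to vary like the other groups.

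At day 10, with 1 library per treatment and no test, 3 of 10 members were higher with LLY-283. SOX6 was at 70.6 CPM against 48.2 in vehicle, SOX9 at 259 against 179 and SOX3 at 8.03 against 5.95. SOX8 showed the widest gap in the other direction, at 38.3 against 62.3 CPM, a log2 difference of -0.7. SOX21 was at 43.2 against 53.4 CPM and SOX2 at 407 against 470 CPM. Both libraries stood apart by endothelial markers, which summed to 25.5 CPM in vehicle and 11.9 with LLY-283, mostly PECAM1 (25 and 11.7 CPM), against 4.4 to 9.97 CPM in the libraries of days 0 to 7. Fibroblast markers summed to 457 and 613 CPM. The part of these genes in the day 10 differences was not tested. SOX9 and SOX6 were higher and SOX8 lower with LLY-283 at day 5, in repeat 1 of day 7 and at day 10. In repeat 2 of day 7, by label, the log2 differences went the other way. They were -0.541 for SOX9, -0.028 for SOX6 and 0.16 for SOX8. SOX8 was also lower at day 0, at -0.137, without passing the test.

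**Figure D4:**
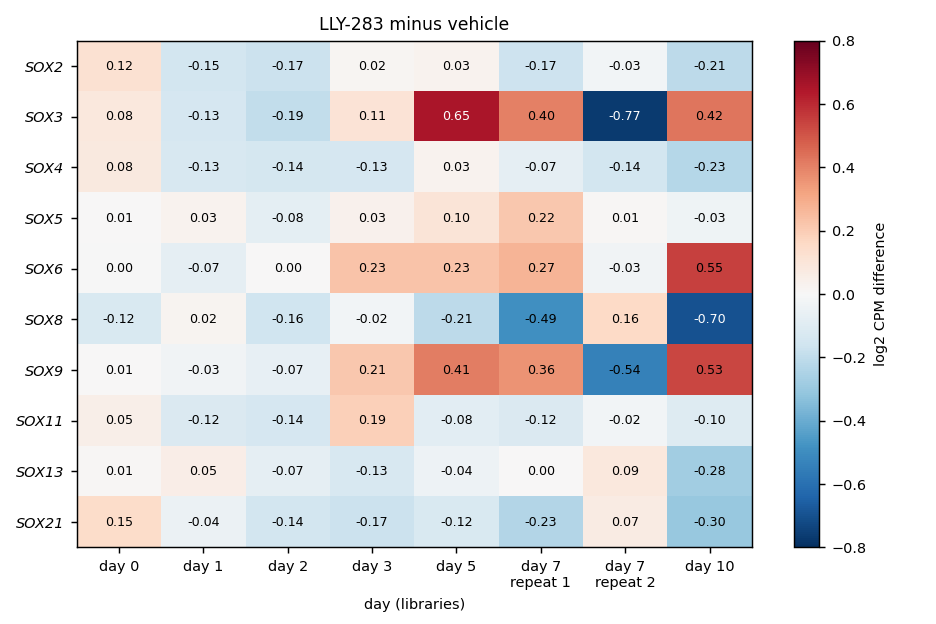
Log2 CPM difference, LLY-283 minus vehicle, for each SOX gene (rows) and day (columns), from mean TMM-normalized levels and hence slightly different from the fitted values, with the 2 repeats of day 7 apart. Red is higher and blue lower with LLY-283. SOX9 is red at days 3, 5, 7 repeat 1 and 10 (0.21, 0.41, 0.36 and 0.53) and blue in day 7 repeat 2 (-0.54).

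The other family members give the setting of these 10. SOX10, the SOXE factor of the oligodendrocyte lineage, had 0 to 11 counts per library over all days, too few to be tested. Of 9 other SOX genes listed, 5 were tested at day 5 and 1 was called, lower: SOX12, the remaining SOXC gene, at 171 ± 3.72 CPM with LLY-283 against 195 ± 1.5 in vehicle (SD, n = 3, log2 -0.17, SE 0.0351, adjusted p = 0.00037, edgeR). Its interaction with day was called too (log2 -0.23, adjusted p = 0.0012, edgeR). Of all genes tested, 14.1% were called lower at day 5 and 14.9% were called for the interaction.

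Long noncoding transcripts next to SOX genes did not all follow their neighbour. Of 5 listed, 3 were tested, and 2 were called higher with LLY-283 at day 5, against 12% of all genes. SOX9-AS1 was at 7.87 ± 0.241 CPM with LLY-283 and 4.17 ± 0.377 in vehicle, a 1.92-fold difference (log2 0.94, SE 0.137, adjusted p = 3.6e-06, edgeR) in the same direction as SOX9. SOX2-OT, in an intron of which SOX2 lies, was at 34.4 ± 0.813 against 27.8 ± 1.92 CPM (log2 0.34, SE 0.0621, adjusted p = 9.2e-05), a difference that SOX2 did not show. Between day 0 and day 5 in vehicle, SOX2-OT fell to 0.76-fold (adjusted p = 5.1e-06) while SOX2 rose. SOX21-AS1 fell with SOX21, to 0.793-fold in vehicle (0.00018) and 0.707-fold with LLY-283 (2.7e-07), and had an adjusted p of 0.24 between the treatments. The SOX genes share no exon with these transcripts, but whether counting used strand is not given in the sources used here. SOX4, SOX6 and SOX11 overlap exons of ENSG00000283480, MIR6073 and ENSG00000242540, which had at most 3, 2 and 14 counts in a library.

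Partner factors of SOX proteins in neural stem and glial cells were tested for all 20 genes listed. At day 5, 5 were called higher and 1 lower, against the 12% and 14.1% of all genes, and the list's median of 0.05 stood beside 0.021. POU3F3, of the class that pairs with SOX2 and SOX11 on neural enhancers, was 1.13-fold higher (adjusted p = 0.001) and NFIX, a glial factor, 1.12-fold (0.00075, edgeR). Between day 0 and day 5 in vehicle 15 of the 20 were called higher and 1 lower, against 22.2% and 16.7% of all genes, with a median of 0.36 over the list and -0.015 over all genes.

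Known targets of the SOX groups were counted from lists of general knowledge, written with earlier results of these data known. Their counts are a description and no independent support. Of 12 progenitor targets of SOX2 and SOX3, 10 were tested, 7 were called higher and 1 lower with LLY-283 at day 5, with a median of 0.19. For this list and those that follow, the values over all genes are again 12% higher, 14.1% lower and a median of 0.021. FABP7, a lipid carrier of radial glia (log2 0.36, adjusted p = 3.1e-08), CCND1, the cyclin of the G1 phase (0.27, 5.1e-07), and PTPRZ1, a receptor phosphatase (0.28, 5.7e-07), were higher. NES, the intermediate filament of neural progenitors, was the gene called lower (log2 -0.24, adjusted p = 3.9e-06). Of 12 early neuronal targets of SOX4 and SOX11, all tested, 3 were called higher and 4 lower, with a median of -0.1. MAP2 (0.31, adjusted p = 2.4e-08) and ELAVL4 (0.45, 4.6e-05) were higher and STMN1 was lower (-0.22, 4.4e-05). DCX, a microtubule protein of migrating neurons, was singled out after its values were seen. Its log2 difference, 1.86, was the largest of that list. It had 28 to 43 counts per library with LLY-283 and 7 to 10 in vehicle. Its LLY-283 libraries alone were enough to pass the filter on low counts, and the size of this difference is uncertain.

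Of 14 cartilage matrix targets of SOX9, SOX5 and SOX6, 6 were expressed enough to be tested, and 3 were called higher and 1 lower at day 5. COL9A1, a chain of collagen IX, was at 18.7 ± 1.18 CPM with LLY-283 and 4.96 ± 0.578 in vehicle, a 3.85-fold difference (log2 1.95, SE 0.11, adjusted p = 1.5e-13, edgeR). WWP2, the host gene of a cartilage miRNA, was 1.3-fold higher (adjusted p = 9.5e-07), and COL9A3, another chain of the same collagen, was lower at 0.852-fold (0.002). The median of the list was 0.41, over the genes that passed the filter.

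**Figure D5:**
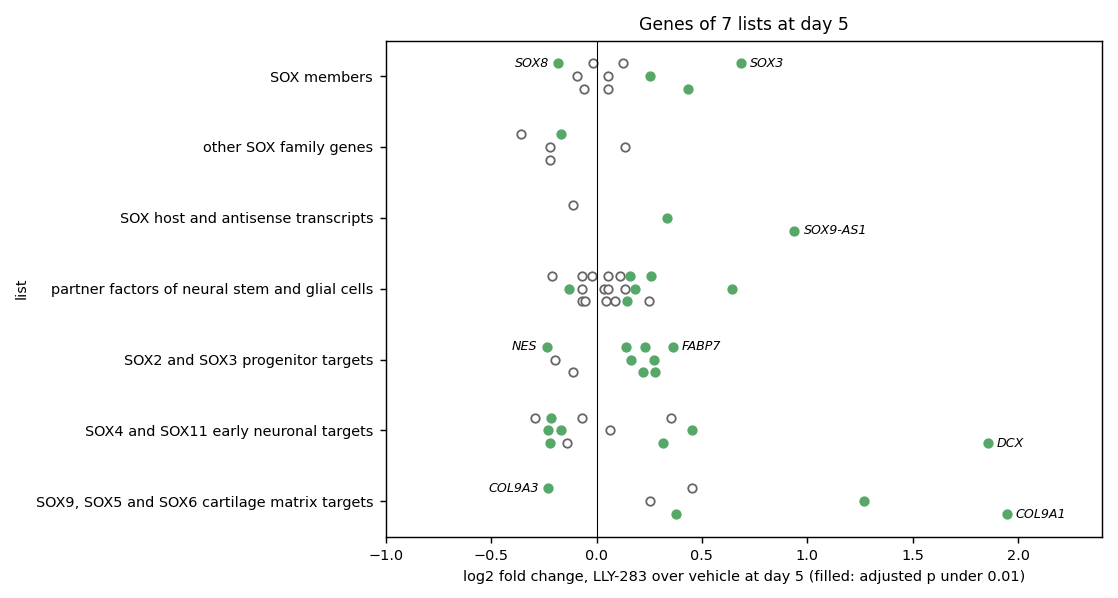
Log2 fold change of LLY-283 over vehicle at day 5 for the tested genes of 7 lists (rows), 1 point per gene, filled where the adjusted p was under 0.01. The highest and the lowest gene of a list are named where called, except in the row of partner factors. COL9A1 (1.945) and DCX (1.856, from few counts in vehicle) lie farthest to the right, and the SOX members lie between -0.182 and 0.684.

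SOX3, the called member with the largest change at day 5, was compared with all genes over the means of the 14 treatment and day groups. The nearest patterns were those of TBC1D17 (Pearson r = 0.934), LEMD2 (0.917) and STAT3 (0.914), a signal transducer of cytokines. These values describe 14 groups of 1 to 3 libraries, taken by label at day 7, in which libraries share day and depth, and no test was made.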

How the data were processed

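HSJD-DIPG-007 poly(A) RNA was made into libraries with a directional kit and sequenced as paired ends. The authors trimmed the reads, pseudoaligned them to the human transcriptome (hg38) with kallisto, and deposited counts per gene in whole numbers, not normalized. Kallisto's version and strand setting are not given in the sources used here. All 24 columns were used and grouped by the labels' treatment and day.

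From these counts, edgeR 4.0.16 in R 4.3.3 was run with TMM normalization, its filter on low counts, and robust quasi-likelihood tests, adjusted by Benjamini-Hochberg over all genes tested, with calls at an adjusted p under 0.01. Each comparison was fitted on its own libraries. Levels per kb used the longest GENCODE transcript on GRCh38, which is not the isoform mix of the cells. The members and lists were chosen with earlier results of these data known. Genes were named by a rule: all 10 members, the 3 called genes of smallest p in each list at day 5, SOX10 and SOX2-OT, and the 3 genes nearest in pattern to the called member of largest change. Marker genes of glioma and other cells, SOX21-AS1 and DCX were named outside it, after their values were seen. Transcripts that overlap exons of members were also named outside it. Alternatives were DESeq2 1.42.0, its size factors, library size alone, no filter or at least 10 counts in every library, shared fits, a replicate block, an adjusted p under 0.05 and leaving out each library. A fit without both day 7 libraries labelled repeat 2 for comparisons other than day 7 was added after seeing the data. On simulated counts for day 5, 100 of 16491 genes were given a log2 change of 1 and another 100 a change of 0.5. All were drawn from genes above a minimum mean level. The test recovered 90% of the former and 73% of the latter. For day 7 by label these shares were 70% and 11%. Smaller changes were not simulated. Fewer genes were changed than were called in the data at day 5, so these shares need not hold for the reported test. Some results that this rule names are not reported here.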

Additional observations from a re-analysis of the deposited data

Results flagged for a closer look

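The effect of LLY-283 differed between day 5 and day 0 for SOX9 and SOX6, by the interaction of treatment with day in edgeR. The difference was 0.443 on the log2 scale for SOX9 (0.433 at day 5 against -0.007 at day 0, adjusted p = 2.1e-07) and 0.271 for SOX6 (0.254 against -0.014, adjusted p = 0.0031). In a fit of all 22 libraries of days 0 to 7 neither passed, with adjusted p-values of 0.12 and 0.098, and without both day 7 libraries labelled repeat 2 SOX9 passed (2.8e-06) and SOX6 did not (0.014). Those libraries were doubted in part from the values of SOX9, so that leaving them out gives no independent support.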

How the results depend on the processing

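At day 5, the count of called members was 4 as reported, 1 in a fit of all 22 libraries, 4 in that fit without both day 7 libraries labelled repeat 2, and 3 to 4 with each library left out. The repeat 2 libraries were doubted in part from these members, and the fit without them gives no independent support. The count over days 1 to 3 was 0, and 1 without day 3 (range 0 to 1). At day 7 it was 0 by label. The interaction gave 2 as reported, 1 with DESeq2, 0 in the fit of 22 libraries, 1 in that of 20, 4 at an adjusted p under 0.05, and 1 to 3 with each library left out. Day 5 against day 0 gave 8 to 9 members in vehicle and 8 to 10 with LLY-283 with each library left out, and day 0 gave 0 to 0. Calls over all genes with each library left out were 5624 to 6114 in vehicle and 6389 to 7233 with LLY-283 between these days. They were 3193 to 4423 at day 5, 2126 to 3000 for the interaction and 0 to 17 at day 0. Over all alternatives the interaction gave 0 to 4 members and 51 to 4452 genes. Over all genes tested, the calls at day 5 were 4304, and 2042 in the fit of 22 libraries. For the interaction they were 2742 and 51. The same fit without both day 7 libraries labelled repeat 2 called 4314 genes at day 5 and 2840 for the interaction. Why the calls differ with these libraries was not tested.

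A block for the repeat number left 4 members called at day 5 and moved all calls from 4304 to 4401. It left 2 for the interaction, 9 in vehicle and 10 with LLY-283 over time, and 0 at days 0 and 7. Over all genes it called 2435 for the interaction, 6490 in vehicle and 7918 with LLY-283 over time. The correlation of deviations between libraries of the same number lay between -0.0764 and 0.00592. These values show no pairing by number but cannot exclude it, as counting noise in genes with few reads also weakens such a correlation.

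The sign turned for the following members. With library size alone, SOX13 was at 0.01 at day 5, SOX11 at 0.02 over days 1 to 3, and SOX4 at 0.025 and SOX13 at 0.024 in the interaction. With at least 10 counts in every library SOX11 was at 0.003 over days 1 to 3. In the fit of 22 libraries SOX5 was at 0.005, SOX9 at 0.006 and SOX13 at 0.009 at day 0, and SOX5 at -0.006 over days 1 to 3. In that of 20 they were at 0.005, 0.006, 0.008 and -0.006. Without both day 7 libraries labelled repeat 2, SOX3 was at 0.405 and SOX9 at 0.362 at day 7. With 1 library left out, the ranges at day 0 were -0.033 to 0.014 for SOX5, -0.039 to 0.014 for SOX6, -0.031 to 0.025 for SOX9, -0.044 to 0.038 for SOX13 and -0.049 to 0.18 for SOX3. With 1 day left out of days 1 to 3 they were -0.016 to 0.054 for SOX5, -0.118 to 0.061 for SOX11, -0.161 to 0.013 for SOX3, -0.075 to 0.022 for SOX8, -0.027 to 0.133 for SOX6 and -0.04 to 0.114 for SOX9. At day 7 they were -0.408 to 0.079 for SOX8, -0.177 to 0.047 for SOX11, -0.197 to 0.037 for SOX21, -0.551 to 0.143 for SOX3 and -0.326 to 0.164 for SOX9. For the interaction they were -0.077 to 0.024 for SOX13, -0.035 to 0.024 for SOX4 and -0.134 to 0.02 for SOX8. SOX3, at 76 to 217 counts per library, is the member whose depth limits its precision most.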

Other observations

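The ratio of SOX9 to SOX8 counts within a library, which needs no scaling between libraries and is not divided by length, was 9.35 to 11.2 in vehicle and 10.9 to 11.7 in LLY-283 libraries at day 0. At day 5 it was 4.81 to 5.08 in vehicle and 7.31 to 7.9 with LLY-283. At day 10 it was 2.87 and 6.77. At day 7 it was 4.54 and 8.21 in repeat 1 of vehicle and LLY-283, and 7.01 and 4.31 in the libraries labelled repeat 2. SOX9 and SOX8 were called in opposite directions at day 5, so that the day 5 gap restates those calls and is no further support. The ratio of SOX2 to SOX21 counts was 3.98 to 4.26 in vehicle at day 0, 7.86 at day 1 and 8.01 to 8.57 at day 5. With LLY-283 it was 3.91 to 4.1 at day 0, 7.31 at day 1 and 9.03 to 9.39 at day 5. Ratios of other pairs of members were also taken and are not given.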
